A study of Homo sapiens with 10 samples.

Results

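Genes that build cilia or make them beat were compared between A549 cells grown as monolayers and in rotating wall vessels (RWV). A549 is an established human line from a lung adenocarcinoma with some features of alveolar type II cells, and in an RWV the rotation of the medium-filled vessel keeps the cells in suspension. Total RNA was labelled with Cy3 and read on 10 one-colour arrays, 5 from monolayer (mono) and 5 from RWV culture, with no treatment or genetic change named in the labels and one medium, with foetal calf serum, for all. The labels' growth protocol names RWVs for all samples, so the groups rest on the titles and source names. The 5 samples of a group are presented as biological replicates, but whether each came from its own separate culture is not stated. P-values measure the spread between these samples, which may be partly technical. Members were chosen by symbol. They are all genes named IFT, BBS, DNAH, DNAI, RSPH, TCTN or CFAP with a number, plus a set of named ciliary genes, and together they make 123 of the 18334 genes on the arrays, measured by 203 spots. PIFO was found under its RefSeq symbol CIMAP3. CFAP100-DT and CFAP95-DT, divergent transcripts whose names fit the pattern, were below the dim level on all arrays, and their levels are not described further.

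A cilium is a microtubule-based projection of the cell. A primary cilium is a single, usually non-motile antenna that many cells raise when they stop dividing and dismantle before mitosis, and it relays Hedgehog signals. Its cargo is moved by intraflagellar transport (IFT) trains, carried outwards by kinesin-2 and back by cytoplasmic dynein-2, and by the BBSome, a coat that sorts membrane proteins, while a transition zone at the base acts as the gate. Motile cilia use the same transport but add axonemal dyneins, radial spokes and other parts that make them beat, and in the airway they are carried by multiciliated cells under the transcription factors FOXJ1 and RFX. The members were therefore divided into 33 transport genes, 13 transition zone genes, 69 genes of motile parts, 3 transcription factors and 3 others (TPPP3, CAPS and CIMAP3). The CFAP family, 40 of the 69 motile genes, takes its name from proteins found with cilia and flagella, and some members such as CFAP20, CFAP36, CFAP298, CFAP410 and CFAP418 also act outside the beating axoneme.

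The arrays carried 45220 spots each, with deposited median intensities of 114 to 184.5. Within a group, arrays correlated at 0.964 to 0.99 over genes, and between groups at 0.91 to 0.978. Levels below are quantile-normalised intensities, and log2 differences are RWV minus mono on the log2(intensity + 50) scale, with the standard error of the limma fit after ± and n = 5 arrays in each group. A gene was past the test at a Benjamini-Hochberg adjusted p under 0.05 over all genes. The groups differed at the top of the scale. Of the spots at or above 60000, 5.84% to 8.45% on mono arrays and 89.3% to 93.1% on RWV arrays were within 200 of the highest value on any of the arrays. No member had a spot at or above 60000 on any array. All 10 epithelial and A549 marker genes examined (keratins, cadherin, EPCAM, aldo-keto reductases and others) were above the dim level on all arrays. For 7 of them, KRT19 included, which was the 1 that passed, a spot was saturated on at least 2 arrays, so their differences are not read. In such bulk RNA, fewer cells of a type and less RNA per cell cannot be told apart.

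Transport genes were detected throughout, and motile genes mostly were not. A gene was called dim on an array when all its spots lay below a normalised intensity of 100. None of the 33 transport genes was dim on any array. Of the transition zone genes 11 were above this level on all arrays and 2, TMEM67 and TCTN2, were dim on some. Of the motile genes only 19 of 69 were above it on all 10 arrays, 15 were dim on some and 35 (50.7%) on all, against 25.4% of all genes. The 35 included 7 of the 12 axonemal dynein heavy chains (DNAH2, DNAH6, DNAH7, DNAH8, DNAH9, DNAH10 and DNAH17), the dynein intermediate chains DNAI2, DNAI3 and DNAI7, the radial spoke genes RSPH4A and RSPH10B, the central pair genes SPAG6 and SPAG17, the tektins TEKT1 and TEKT2, and 19 CFAP genes. FOXJ1 and CIMAP3 were also dim on all 10 arrays.

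**Figure D1:**
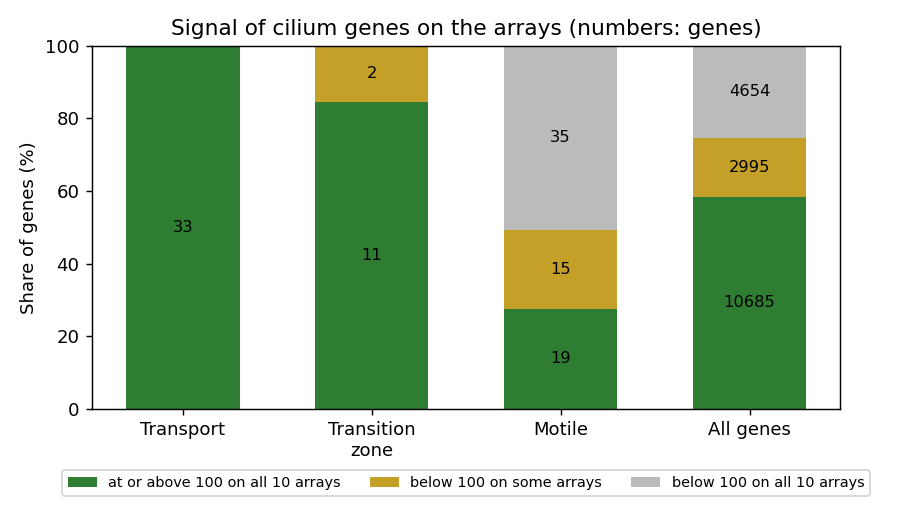
Share of genes (vertical axis, %) with at least 1 spot at or above a normalised intensity of 100 on all 10 arrays (green), on some (yellow) or on none (grey), for the transport, transition zone and motile classes and for all genes, with the number of genes in each block. All 33 transport genes fall in the green block and 35 of 69 motile genes in the grey one.

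RWV culture went with changes in both directions among the members. Of the 123, 27 were higher and 13 lower in RWV by limma with Benjamini-Hochberg adjustment, 32.5% in all, where 30.2% of all genes passed (14.8% higher and 15.4% lower). The share of members called was thus close to that of the array as a whole. Transport genes passed in 16 of 33 cases (9 higher, 7 lower), transition zone genes in 8 of 13 (5 higher, 3 lower) and motile genes in 12 of 69 (9 higher, 3 lower). Among all genes that were not dim on every array, 39.5% passed. Of the 35 motile genes dim on all arrays 0 passed, and of the 4654 genes of the whole array that were dim on all arrays only 123 did. The 12 motile calls came from the 19 genes above the dim level throughout and the 15 dim on some. The median log2 difference was -0.035 over transport, 0.015 over transition zone and 0.05 over motile genes, beside 0.0037 over all genes. In 28 members all RWV values lay on one side of all mono values, and 23.1% of all genes did the same.

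These counts depended on the scaling between arrays. With the values as deposited, where the median of all genes lay at -0.13, 5 members were higher and 11 lower, so that rises made up 31.2% of the calls among members against 67.5% with normalisation, and 29.2% against 49% among all genes. Of the transport genes 0 rose and 7 fell by limma with those values, and of the transition zone genes 0 rose and 2 fell (2 and 1 higher at an unadjusted p under 0.05), so every rise in both classes was lost. No member that passed turned its direction. The calls that held in both were the rises of CFAP144, CFAP96, DNAH5, RSPH1 and TPPP3 and the falls of DYNC2I2, TTC8, IFT25, IFT56, IFT81, IFT122, BBS7, MKS1, RPGRIP1L, RSPH14 and ROPN1L. The other 24 members that passed, 22 of them higher, did not pass with the values as deposited. When each array was left out in turn, 28 of the 40 kept their call every time. The others were BBS2, CC2D2A, CFAP44, CFAP65, DNAH11, DYNC2I1, IFT81, IFT122, MKS1, RPGRIP1L, RSPH14 and TCTN3. The calls of RPGRIP1L and TCTN3 were each lost without 1 particular array. Those of the rest were lost without any of 4 to 8 arrays, as given below for each gene.

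**Figure D2:**
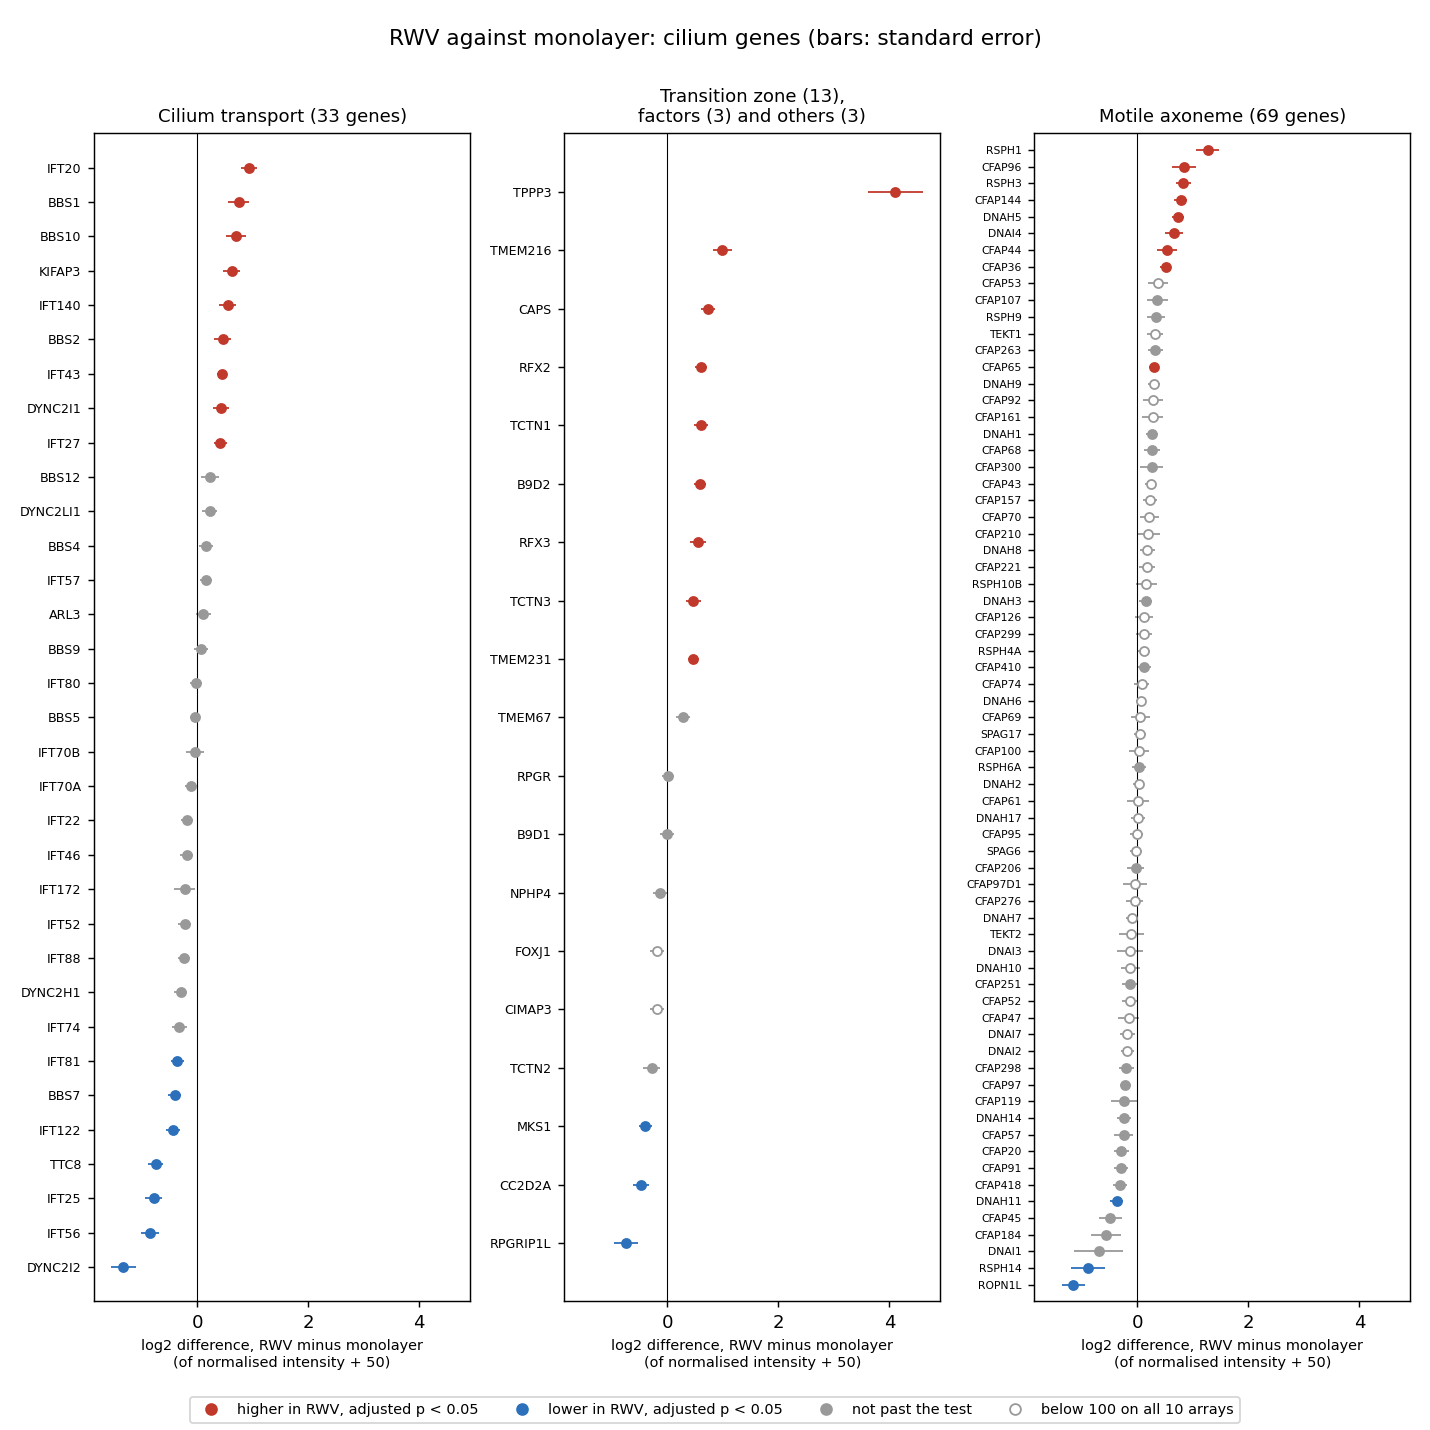
Log2 difference of RWV minus monolayer (horizontal axis, log2 of normalised intensity + 50; bars are standard errors, 5 arrays in each group) for the 121 members other than the divergent transcripts, one gene per line. Red and blue points passed the limma test, grey points did not, and open points were below 100 on all 10 arrays. Most motile genes sit near 0, and TPPP3 lies far to the right at 4.11.

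RFX2 and RFX3 rose, and FOXJ1 was dim. RFX2, a winged-helix factor that binds ciliary gene promoters, read 568, 662, 598, 535 and 550 on mono arrays 1 to 5 and 771, 923, 988, 1000 and 896 on RWV arrays. The groups did not overlap, and the log2 difference was 0.61 ± 0.10 (limma adjusted p = 0.00094). RFX3, a related factor needed for ciliogenesis in mice, averaged 100.4 in mono and 171 in RWV, a difference of 0.56 ± 0.14 (adjusted p = 0.011), but of its 2 spots 1 carried the change (0.86, adjusted p = 0.0049 over spots) and the other did not pass (0.26, adjusted p = 0.19). FOXJ1, the master regulator of motile ciliogenesis, read 26.4 to 50.8 in mono and 12.1 to 48.9 in RWV, all below the dim level, with overlapping groups (adjusted p = 0.34). Of 12 measured regulators of multiciliated cells, RFX relatives and E2F factors, 1 rose and 1 fell, 16.7% in all, where 30.2% of all genes passed. E2F5 rose by 0.45 ± 0.14. MYB was lower in RWV, where it was dim on all 5 arrays (104 in mono and 38.8 in RWV, limma adjusted p = 0.0075). TP73, DEUP1, CDC20B, FOXN4 and RFX4 were dim on all arrays, and RFX1 (216 and 206), RFX5 (918 and 702) and RFX7 (246 and 225) did not pass (adjusted p = 0.85, 0.087 and 0.6). With the values as deposited neither RFX2 (0.36, adjusted p = 0.19) nor RFX3 (0.41, adjusted p = 0.13) passed.

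RFX proteins recognise the X-box, an imperfect inverted repeat, and its letters were common in the members' promoters. RefSeq promoters (GRCh38.p14) were matched for 108 of the 123 members, and the 250 bases before each gene start were searched on both strands for the 6-letter core GTTGCC and for a 14-letter form, GTNNCC followed by any 3 bases and GNAAC, which can overlap the core. The core was found in 46 of 108 member promoters (42.6%) and in 10.3% of the 14410 promoters of genes on the array. The 14-letter form was found in 19 member promoters (17.6%) and in 2.21% of promoters on the array. The divergent transcripts are among the 108, and CFAP100 and CFAP100-DT carry the same site on opposite strands, so that it is counted in both for the core and for the 14-letter form. The core stood in 38.7% of transport, 36.4% of transition zone and 47.5% of motile promoters. It stood in 39.1% of the promoters of members that rose, in 38.5% of those that fell and in 44.4% of those not past the test. A match of letters is a description of the promoter and shows no binding.

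The following 60-base stretches, written 5′ to 3′ on the strand of the gene, show where these letters lie in 3 members that rose (CFAP144, IFT27 and TMEM231), 3 that fell (IFT122, TTC8 and MKS1) and 1 that was not past the test and dim in mono (DNAH1). Capitals mark 1 core in each gene that rose or fell, read on the strand of the gene or as its complement. In DNAH1 they mark the whole 14-letter match, which holds a core on each strand, and its promoter has 3 cores in all. Further cores in CFAP144 and TMEM231 are left in lower case.
CFAP144 (chr1:43147844-43147903, plus strand): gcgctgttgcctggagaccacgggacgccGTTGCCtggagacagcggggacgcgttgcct
IFT27 (chr22:36776128-36776187, minus strand): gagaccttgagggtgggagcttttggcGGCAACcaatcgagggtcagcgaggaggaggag
TMEM231 (chr16:75556260-75556319, minus strand): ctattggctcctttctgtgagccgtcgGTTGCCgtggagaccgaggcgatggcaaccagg
IFT122 (chr3:129440164-129440223, plus strand): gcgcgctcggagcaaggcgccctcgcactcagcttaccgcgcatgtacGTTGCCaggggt
TTC8 (chr14:88824590-88824649, plus strand): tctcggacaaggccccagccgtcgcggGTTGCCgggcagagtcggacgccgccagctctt
MKS1 (chr17:58219257-58219316, minus strand): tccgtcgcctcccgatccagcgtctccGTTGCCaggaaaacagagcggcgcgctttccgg
DNAH1 (chr3:52316191-52316250, plus strand): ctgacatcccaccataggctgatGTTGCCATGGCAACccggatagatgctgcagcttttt
The core begins 31 bases before the gene start in CFAP144, where it occurs 3 times in all, 41 in IFT27, 40 in TMEM231, which holds another core 17 bases before the start, 12 in IFT122 and 34 in both TTC8 and MKS1. The 14-letter match of DNAH1 begins 105 bases before its start, and TMEM231 also has one, which begins with its marked core.

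**Figure D3:**
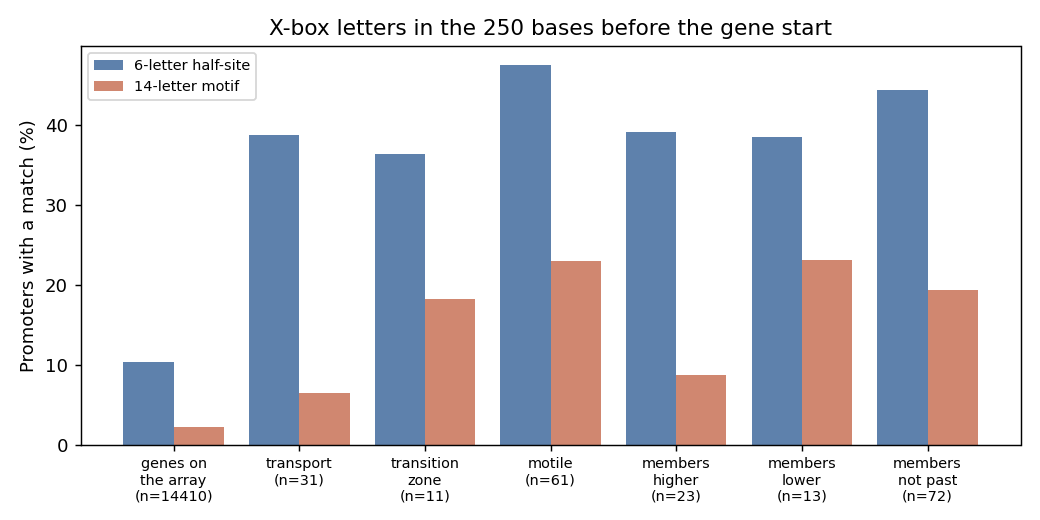
Share of promoters (vertical axis, %) with the 6-letter core (blue) and the 14-letter form (orange) in the 250 bases before the gene start, for genes on the array, the member classes and the members by their call; n is the number of promoters. The member bars for the core lie between 36.4% and 47.5%, and that for the array at 10.3%.

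After normalisation, subunits of the IFT trains moved in opposite directions. With the values as deposited the falls of IFT25, IFT56, IFT81 and IFT122 passed, and the rises of IFT20 (0.66, limma adjusted p = 0.081), IFT27 (0.14, adjusted p = 0.74), IFT43 (0.16, adjusted p = 0.71) and IFT140 (0.30, adjusted p = 0.39) did not. In IFT-B, the complex linked to outward movement, 2 of 15 measured members rose, 3 fell and 10 did not pass. The share past the test, 33.3%, was close to the 30.2% of all genes, which were also split between rises (14.8%) and falls (15.4%). It was below the 39.5% of genes not dim on every array. IFT20, which also sits at the Golgi and helps deliver membrane proteins to the cilium, read 2047, 2372, 2764, 1722 and 2763 in mono and 4581, 4364.5, 3654, 4621 and 5189 in RWV, with no overlap. Its log2 difference was 0.94 ± 0.15 (limma adjusted p = 0.00061). IFT25 and IFT27 form a pair within IFT-B that in mice is needed for Hedgehog signalling, and they diverged. IFT25 read 4192 to 5852 in mono and 2052 to 3604 in RWV and fell by 0.79 ± 0.15 (adjusted p = 0.0025), while IFT27, a small GTPase, read 2833 to 3608 and 3759 to 5101 and rose by 0.42 ± 0.11 (adjusted p = 0.015). Neither overlapped between groups. IFT56 fell by 0.85 ± 0.16, from 189 to 283 in mono to 65.7 to 160 in RWV, again with no overlap (adjusted p = 0.0022). IFT81, which binds tubulin together with IFT74, fell by 0.35 ± 0.11 (adjusted p = 0.035), a call that was lost without any of 6 arrays (adjusted p 0.051 to 0.088: mono 2 or 3, RWV 1, 2, 4 or 5), and its brighter spot gave -0.93. IFT172, among the members not past the test, averaged 4322 and 3697 (adjusted p = 0.44). IFT70A and IFT70B, near-identical copies whose spots may share signal, did not pass either.

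IFT-A is the complex of the return journey and of membrane protein entry. IFT43 rose by 0.45 ± 0.09, from 4465 to 5253 in mono to 6164 to 7315 in RWV (limma adjusted p = 0.0031), and IFT140 rose by 0.55 ± 0.15, from 499 to 911 to 973 to 1213 (adjusted p = 0.017). The groups did not overlap for either gene. IFT122 fell by 0.43 ± 0.13 (adjusted p = 0.023). It read 819, 788, 1229, 859 and 822 on the RWV arrays and 1091 to 1309 on mono arrays, so that RWV 3 lay among the monolayers, and the call was lost without mono 1 or 5 or RWV 1, 2 or 5 (adjusted p 0.051 to 0.058). WDR35, an IFT-A subunit outside the name rule, fell by 1.10 ± 0.16, from 411 to 165, and its RWV 3 value of 236 was also apart from the next highest, 157.

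Motor subunits showed the largest fall among transport genes. DYNC2I2 (WDR34), an intermediate chain of dynein-2, read 17595, 14776, 14306, 16942 and 12878 in mono and 4898, 5617, 11458, 5471 and 4590 in RWV. The groups did not overlap, although RWV 3 lay close to the lowest mono array, and the difference was -1.33 ± 0.22 (limma adjusted p = 0.00086). Its partner chain DYNC2I1 (WDR60) rose by 0.43 ± 0.14, from 669 to 921 (adjusted p = 0.036), with RWV 5 at 633 inside the mono range. That call was lost without any of 8 arrays (adjusted p 0.053 to 0.082), mono 3 and RWV 5 being the exceptions. The heavy chain DYNC2H1 (-0.30 ± 0.12, adjusted p = 0.085) and the light intermediate chain DYNC2LI1 (0.23 ± 0.14, adjusted p = 0.27) did not pass. KIFAP3, the non-motor subunit of kinesin-2, rose by 0.62 ± 0.16, from 2250 to 3872 in mono to 4149 to 5482 in RWV (adjusted p = 0.0099).

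BBSome genes were divided as well. Of the 7 measured subunits, BBS1 and BBS2 rose, TTC8 (BBS8) and BBS7 fell, and BBS4 (2461 and 2759), BBS5 and BBS9 did not pass. The share past the test was 57.1%, where 30.2% of all genes and 39.5% of those not dim on every array passed. TTC8 read 1940, 1875, 1513, 1585 and 1634 in mono and 1100, 1158, 1122, 935 and 736 in RWV, with no overlap, and fell by 0.74 ± 0.13 (limma adjusted p = 0.0015). BBS1 rose by 0.75 ± 0.19, from 87.9 to 217 in mono to 219 to 404 in RWV (adjusted p = 0.011). BBS7 fell by 0.41 ± 0.12, from 149 to 100.1 (adjusted p = 0.02). It did not pass on its brighter spot alone (-0.35, adjusted p = 0.11), with 75th percentile scaling (adjusted p = 0.069), with the replicate number as a block (adjusted p = 0.053) or without mono 4 and RWV 3 (adjusted p = 0.07). BBS2 rose by 0.46 ± 0.15 (adjusted p = 0.039), with overlapping groups, and was lost without any of 7 arrays (adjusted p 0.053 to 0.102; mono 1, 2 or 4, RWV 2, 3, 4 or 5). BBS10, a chaperonin-like protein that helps assemble the BBSome, rose by 0.71 ± 0.18, from 396 to 612 to 642 to 1279 (adjusted p = 0.012). The GTPase ARL3, which releases lipid-modified cargo inside the cilium, averaged 2804 and 3030 (adjusted p = 0.61).

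At the transition zone, 5 genes rose and 3 fell. TMEM216, a membrane protein of the gate, read 912, 953, 1234, 1528 and 1209 in mono and 2581, 2062, 1695, 2739 and 2746 in RWV, and rose by 0.99 ± 0.17 with no overlap (limma adjusted p = 0.0012). B9D2, a B9-domain protein of the same complex, rose by 0.59 ± 0.11, from 3213 to 4821 to 5604 to 6400 (adjusted p = 0.0023), and its relative B9D1 averaged 2390 in both groups (adjusted p = 1). TMEM231 rose by 0.47 ± 0.10 and the tectonic TCTN3 by 0.47 ± 0.13, the latter not past the test without RWV 1 (adjusted p = 0.053). The tectonic TCTN1 rose by 0.60 ± 0.12 (adjusted p = 0.0033), but its 2 spots went in opposite directions. The brighter spot read 1609 to 2368 in mono and 5190 to 9006 in RWV (log2 difference 1.72), and the other, dim on all arrays, fell from 25.7 to 68 to 10.7 to 28.6 (-0.51, adjusted p = 0.017 over spots). TCTN1 was the only member with spots past the test in both directions.

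The 3 transition zone genes that fell, RPGRIP1L, CC2D2A and MKS1, all encode proteins of the gate that are mutated in ciliopathies. RPGRIP1L fell by 0.74 ± 0.22 (limma adjusted p = 0.023), from 562 to 994 in mono to 383, 237, 617, 431 and 460 in RWV, where RWV 3 overlapped the monolayers, and did not pass without mono 1 (adjusted p = 0.056). CC2D2A fell by 0.47 ± 0.14, from 204 to 134 (adjusted p = 0.024), and was lost without any of 6 arrays (adjusted p 0.05 to 0.059; mono 1, 4 or 5, RWV 1, 2 or 4). MKS1 fell by 0.40 ± 0.12 (adjusted p = 0.024), which rested on 1 of its 2 spots. That spot read 300 to 451 in mono and 132 to 240 in RWV, and the other read 238 to 313 and 253 to 326 (log2 difference -0.0082), and the call was lost without mono 1 or 2 or RWV 2 or 4 (adjusted p 0.057 to 0.062). RPGR (562 and 569) and NPHP4 (309 and 277), also gate proteins, did not pass.

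Among motile parts, the 12 genes that passed were scattered over structures. More motile members passed when only the brightest spot of each gene was used. RSPH1, a head protein of the radial spokes, read 154, 203, 352, 194 and 212 in mono and 434, 635, 941, 541 and 492 in RWV, and rose by 1.26 ± 0.21 with no overlap (limma adjusted p = 0.00097). RSPH3, also of the radial spokes, rose by 0.83 ± 0.14, from 360 to 598 to 824 to 996 (adjusted p = 0.00088). RSPH14 fell by 0.89 ± 0.31 (adjusted p = 0.047), with overlapping groups (306 to 945 in mono, 175 to 456 in RWV), and was lost without any of 6 arrays (adjusted p 0.083 to 0.111; mono 2, 3 or 5, RWV 1, 3 or 5). RSPH9 (135 and 182) did not pass as a mean of its 2 spots. Of these, 1 rose from 116 to 236 (0.79, limma adjusted p = 0.008 over spots) and the other did not pass (-0.13, adjusted p = 0.62 over spots). RSPH4A was dim, as was RSPH10B, whose near-identical copy may share its spots. ROPN1L, a ropporin-like protein of sperm flagella, read 241, 199, 120, 365 and 165 in mono and 43.9, 63.8, 91.9, 66.1 and 63.2 in RWV, and fell by 1.16 ± 0.21 with no overlap (adjusted p = 0.0015); it was dim on 2 of the RWV arrays.

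Of 12 axonemal dynein heavy chains 1 rose and 1 fell by the mean of their spots, both at low mean levels. The share past the test was 16.7%, against 30.2% of all genes. Single spots also passed in 2 chains whose means did not. The brightest spot of DNAH14 fell from 1790 to 1229 (-0.52, limma adjusted p = 0.015 over spots). A spot of DNAH1 rose from 54.8 to 107.8 (0.59, adjusted p = 0.0059 over spots). DNAH5, of the outer dynein arm, rose by 0.72 ± 0.11 (limma adjusted p = 0.00045), from 33.3 to 63.6 in mono to 93.5 to 125 in RWV, and 1 of its 4 spots carried the rise. That spot went from 147 to 805 (log2 difference 2.12), while the other 3 were dim on all arrays and did not pass. DNAH11, another outer arm chain, averaged 61.6 in mono and 36 in RWV, under the dim level in both as a mean of its 3 spots, and its fall of 0.38 ± 0.12 (adjusted p = 0.028), carried by the 1 spot that passed (-0.63), was lost without mono 3 or 5 or RWV 4 or 5 (adjusted p 0.058 to 0.068). DNAI4 (WDR78), an intermediate chain, was dim on all mono arrays and at least 1.05-fold higher in RWV (adjusted p = 0.01). DNAI1, the intermediate chain of the outer arm, read 433 on mono 2 and 8.6 to 49.3 on the other 9 arrays.

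Of the 40 CFAP genes 5 rose and 0 fell by limma, where 4 (CFAP20, CFAP45, CFAP91 and CFAP418) were lower at an unadjusted p under 0.05. The share past the test was 12.5%, below the 30.2% of all genes, of which 14.8% rose and 15.4% fell. These counts are of spot means, and in other genes a single spot passed. It fell in CFAP418 (-0.43, limma adjusted p = 0.011 over spots), CFAP97 (-0.38, 0.047) and CFAP91 (-0.70, 0.045). It rose in CFAP68 (0.63, 0.016) and CFAP263 (0.49, 0.015). CFAP144 rose by 0.78 ± 0.12, from 90.6 to 128 in mono to 167 to 253 in RWV with no overlap (adjusted p = 0.00043). CFAP36, a protein that binds ARL3, rose by 0.51 ± 0.10, from 7599 to 8615 to 10104 to 13375, again with no overlap (adjusted p = 0.0023). CFAP65 rose by 0.30 ± 0.10 (adjusted p = 0.032). Of its 3 spots 1 went from 5917 to 9457 (0.67, adjusted p = 0.012 over spots), and the other 2 were dim on all arrays and did not pass. The call of the mean was lost without any of 7 arrays (adjusted p 0.059 to 0.076; mono 1, 2, 3 or 5, RWV 2, 4 or 5). CFAP96 (29 and 91.6) and CFAP44 (35.4 and 73) passed but were dim on all mono arrays and averaged below the dim level in RWV, so no fold is given. CFAP44 was lost without any of 8 arrays (adjusted p 0.058 to 0.107; all but mono 1 and RWV 4). CFAP298, CFAP20 and CFAP107, above the dim level throughout, did not pass (adjusted p = 0.3, 0.12 and 0.2).

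TPPP3 changed far more than any other member. TPPP3, a tubulin-binding protein abundant in multiciliated cells, read 158, 458, 994, 97.8 and 283 in mono and 6014, 11748, 6410, 6626 and 2647 in RWV. The groups did not overlap, although each spread widely, with SDs of 1.11 and 0.76 on the log2 scale. The difference was 4.11 ± 0.50 (limma adjusted p = 0.00014), or 17.3-fold. CAPS, the calcium-binding calcyphosine, also used as a ciliated cell marker, read 112 to 204 in mono and 258 to 340 in RWV and rose by 0.73 ± 0.13 (adjusted p = 0.0013). Of its 2 spots 1 passed (1.11, adjusted p = 0.0018 over spots) and the other did not (0.35, adjusted p = 0.28). CIMAP3 (pitchfork), linked in mice to cilium disassembly, was dim throughout.

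**Figure D4:**
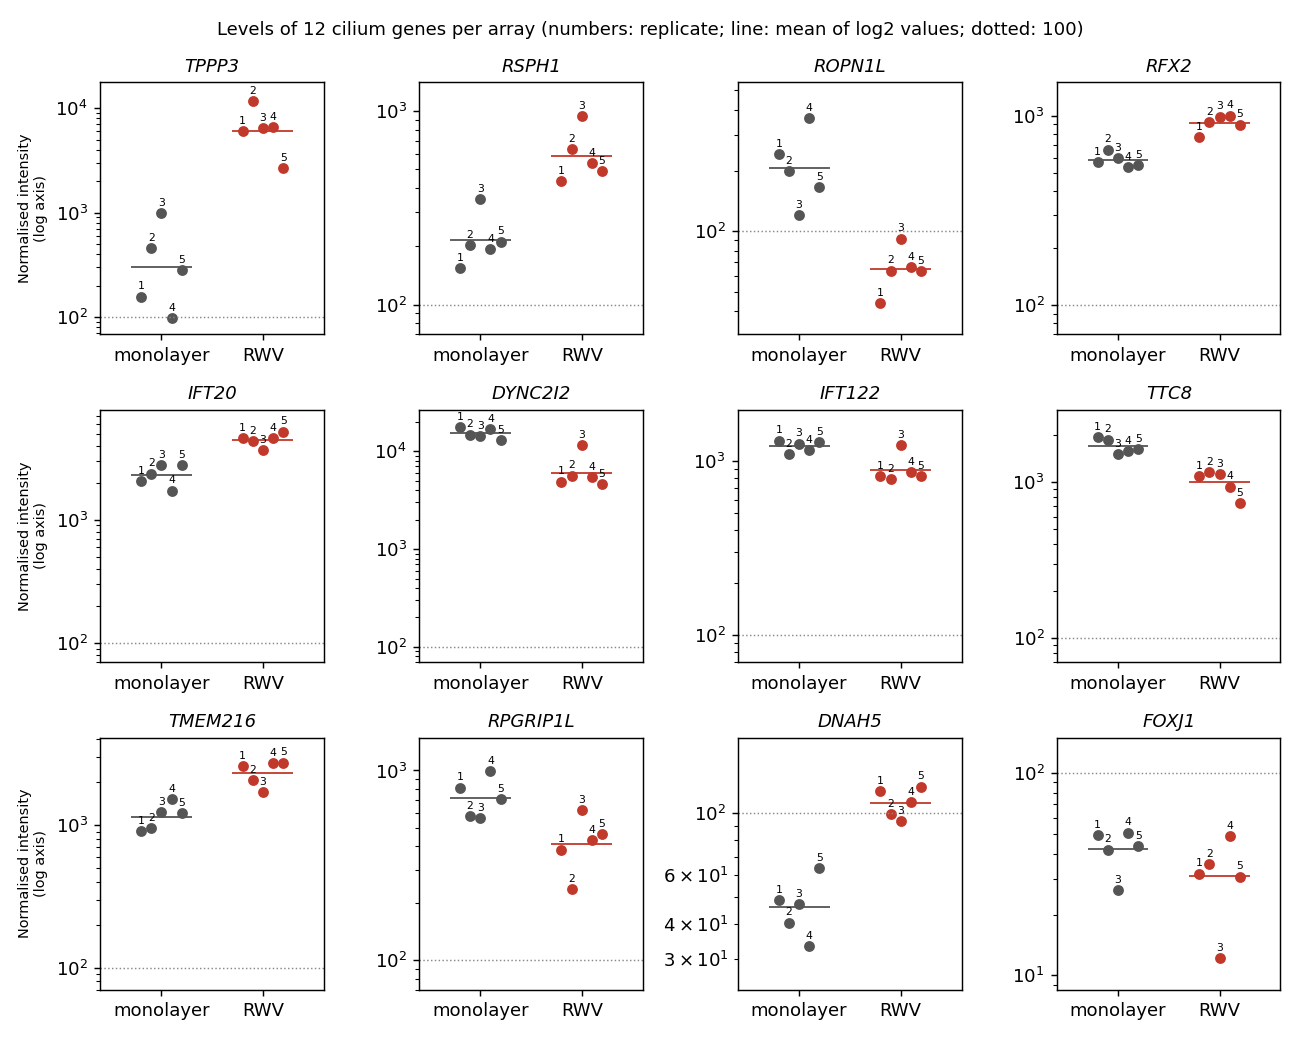
Normalised intensity (log axis) of 12 members on each array, numbered by replicate, in monolayer (grey) and RWV (red); lines are means of log2 values and the dotted line marks 100. TPPP3, RSPH1, RFX2, IFT20, TMEM216 and DNAH5 lie higher in RWV and ROPN1L, DYNC2I2 and TTC8 lower without overlap, IFT122 and RPGRIP1L overlap through RWV 3, and FOXJ1 stays below 100.

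Markers of multiciliated cells, to which TPPP3, CAPS, RSPH1 and DNAH5 belong, moved unevenly. Of 12 such markers 11 were measured and 4 rose, where 14.8% of all genes rose. FOXJ1, DNAH9, TEKT1, SPAG6 and CIMAP3 were dim on all arrays, DNAI1 was dim on all RWV arrays and CCNO did not pass (limma adjusted p = 0.19). The summed level of the markers was 966 to 1979 on mono and 3995 to 13366 on RWV arrays. In RWV most of this sum was TPPP3, which alone read 97.8 to 994 on mono and 2647 to 11748 on RWV arrays. The part of multiciliated cells in the members' differences was not tested. Markers of leukocytes (summed level 192 to 323 in mono, 189 to 251 in RWV), fibroblasts (132 to 233, 99.2 to 142) and endothelium (102 to 162, 91.4 to 177) were low, and 0 of 10 passed by limma, with 1 lower at an unadjusted p under 0.05, COL1A1 (114.3 and 68.5, adjusted p = 0.052).

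Ciliary genes outside the name rule moved in both directions, and 30.2% of all genes passed the test. In the first 2 lists below the share was lower, 23.1% and 18.2%, and in the third it was 57.1%. Of 13 further IFT and motor genes 3 fell and 0 rose by limma (0 higher also at an unadjusted p under 0.05). Besides WDR35 these were the kinesin-2 motor KIF3C (-0.57 ± 0.18) and the dynein light chain DYNLL1 (-0.49 ± 0.12), which also serves other motors. The kinesin-2 motors KIF3A and KIF3B did not pass. Of 11 BBSome partners and ciliary GTPases, UNC119B, a chaperone of lipid-modified cargo, rose by 0.60 ± 0.12 and the chaperonin-like MKKS fell by 0.58 ± 0.15. Of 14 further transition zone and basal body genes 3 rose and 5 fell, among them TMEM17, up by 1.14 ± 0.14 from 592 to 1363 (limma adjusted p = 0.00013), TMEM237 (-0.68 ± 0.11), SCLT1 (-0.66 ± 0.17, dim on 3 of 5 RWV arrays) and TMEM138 (-0.59 ± 0.14).

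Of 30 further genes of the motile axoneme and of dynein assembly, 2 rose, 4 fell and 13 were dim on all arrays. The share past the test was 20%, against 30.2% of all genes. MNS1, a protein of the axoneme interior, fell by 3.29 ± 0.38, from 1353 to 93.2 (limma adjusted p = 0.00011), and was dim on 3 of 5 RWV arrays, so that its level there is not clear of background. SPA17, a sperm flagellum protein, fell by 0.67 ± 0.13, while the tektin TEKT4 rose by 0.92 ± 0.22 and STK36, a kinase needed in mice for the central pair, by 0.61 ± 0.15. In the Hedgehog pathway 2 of 14 measured genes rose and 2 fell, 28.6% in all and close to the share of all genes. The co-receptor CDON rose by 0.92 ± 0.15, the antagonist HHIP was dim in mono and at least 1.24-fold higher in RWV, the ciliary receptor GPR161, which restrains the pathway, fell by 0.60 ± 0.11, and the transducer SMO fell by 0.33 ± 0.10. The pathway targets GLI1 (1837 and 1501, adjusted p = 0.37) and PTCH1 (83.5 and 94.7, adjusted p = 0.44) did not pass.

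Many genes linked to taking the cilium down fell, and several of these are mitotic genes. Of 13 measured disassembly genes 9 fell and 0 rose by limma (0 higher also at an unadjusted p under 0.05). Among all genes 15.4% fell. The mitotic kinase genes PLK1 (-4.07 ± 0.57), AURKA (-3.76 ± 0.56), NEK2 (-2.90 ± 0.44) and TTK (-2.88 ± 0.36) and CDC20 (-3.63 ± 0.50) are also cell cycle genes. The depolymerising kinesin KIF2A (-0.77 ± 0.15) and the centriole cap protein CCP110 (-0.62 ± 0.11) fell by less. HDAC6, NDE1 and NEDD9 did not pass, and KIF24 was dim on all arrays. All 15 mitosis genes examined fell, CDC20 being counted in both lists. Their summed level was 53696 to 94992 on mono arrays and 2088, 6801, 23618, 7493 and 2204 on RWV arrays 1 to 5, so that RWV 3 stood nearest to the monolayers. RWV 3 was also the RWV array closest to the mono mean in 17 of the 40 members that passed, among them DYNC2I2, IFT122 and RPGRIP1L. Without RWV 3, 25 members were higher and 13 lower. The part of cell cycle state in these differences was not tested.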

How the data were processed

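Total RNA of 10 A549 samples was read on one-colour Cy3 arrays, and groups were taken from sample titles. The deposited values are spot intensities on a linear scale. They include values below 0, and their medians differ between arrays, so no normalisation between arrays by the authors is visible. How the images were scanned and background removed is not given in these sources. Spots were named through the platform annotation, 31332 with 1 gene symbol, and these were quantile normalised (limma 3.58.1, R 4.3.3), set to at least 0 and turned into log2(value + 50), which understates changes of dim genes. Spots of a gene were averaged and groups compared by limma's moderated test (two-sided; lmFit, eBayes), adjusted over 18334 genes by Benjamini-Hochberg. The script was tested on simulated data. No 2 arrays shared values in more than 1.46% of spots, and since 3 of 5 same-numbered pairs, not all, correlated above 0.1 (r -0.15 to 0.22), the numbers were not taken to pair arrays. The plotting used matplotlib 3.10.9.

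The members, the other gene lists, the tests and the settings were chosen with earlier results of these data known. Text names all members past the test, FOXJ1, RFX2 and RFX3, up to 3 members of each class with the highest level among those not past it, and up to 4 genes of each other list with the largest change among those past the test. DYNC2H1, DYNC2LI1, IFT70A, IFT70B, BBS5, BBS9, RSPH9, DNAI1, KIF3A, KIF3B, KIF2A, CCP110, HDAC6, NDE1, NEDD9, RFX1, RFX5, RFX7, CFAP45, CFAP91, CFAP418, PTCH1, GLI1, genes listed as dim and further markers were added after their values were seen. The same holds for DNAH1, DNAH14, CFAP68, CFAP97, CFAP263 and TTK. Alternatives were other scalings, pseudocounts, spot rules, filters, blocks and left-out arrays.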

Additional observations from a re-analysis of the deposited data

Results flagged for a closer look

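Among 164 sets of 5 values (82 named genes, each in 2 groups), 7 held an array that stood apart by Dixon's criterion, and chance flags about 1 in 20 sets. In RWV this array was RWV 3 in each of 5 genes. DYNC2I2 read 11458 there against 5617 on the next highest array, IFT122 1229 against 859, WDR35 236 against 157, DYNLL1 32199 against 25823, and TEKT4 192, below the next lowest at 317. In mono, CFAP144 read 128 on mono 4 against 99.4 on the next, and TMEM138 read 3182 on mono 1 against 2569.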

How the results depend on the processing

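Over 22 alternatives no member past the test turned its direction, and 3 of 40 (DYNC2I2, RSPH1 and TPPP3) passed in each of them. With the values as deposited, all genes called numbered 3555 (5529 with normalisation), 5 members were higher, 7 transport, 2 transition zone and 6 motile members passed, and the medians of these classes were -0.24, -0.21 and -0.028. With 75th percentile scaling 23 members were higher and 7 lower. With the brightest spot of each gene 20 motile members passed. The motile median was 0.099 with a pseudocount of 16 and 0.11 with the filter on dim genes. Arrays 4 and 5 of each group had lower 5th percentiles (0 to 4) than arrays 1 to 3 (8 to 20). Within arrays 1 to 3, 3056 genes passed, with 14 members higher and 4 lower, 6 transport, 3 transition zone and 6 motile, and the motile median was 0.093. Within arrays 4 and 5, with 2 arrays in each group, 1056 genes passed, with 2 members higher and 2 lower, 1 transport, 0 transition zone and 2 motile, and the transition zone median was 0.16. All 40 members kept their sign within both sets. The cause of these differences was not tested. When single arrays were left out, 4484 to 5643 genes passed, with 23 to 26 members higher, 9 to 13 lower, 12 to 15 transport, 5 to 8 transition zone and 8 to 13 motile, and medians of -0.098 to -0.0078, 0.0089 to 0.066 and 0.041 to 0.074. With the replicate number as a block 5399 genes passed, 26 members higher and 11 lower, and BBS7, CC2D2A, CFAP44 and DYNC2I1 were lost (adjusted p 0.052 to 0.066). Same-numbered arrays correlated at -0.15 to 0.22 in their deviations, and 2 of 5 mono arrays correlated best with their own number. The alternatives chosen after seeing the data, normalisation over all spots and leaving out mono 4 and RWV 3 together, gave 27 and 26 members higher and 12 and 13 lower. Signal over background limits the dim genes, whose differences are understated.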
